A study of Arabidopsis thaliana with 2 samples.

Results

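The AHA genes encode the plasma membrane proton pumps (H+-ATPases) of Arabidopsis thaliana, and 10 of them, AHA1 to AHA9 and AHA11, were examined among 27444 protein-coding genes for binding sites of the transcription factor TGA1. They were chosen by locus tag, after the peaks at them were known. The wide peak at AHA2 was named in that choice. The peaks at these genes are therefore described here and not tested. Binding came from chromatin immunoprecipitation with sequencing (ChIP-seq), in which an antibody pulls a protein down with the DNA it sits on and that DNA is sequenced. The material was roots of plants with TGA1-GFP, a fusion of TGA1 to the green fluorescent protein GFP, cross-linked with 1% formaldehyde. The GFP antibody gave 1 library and IgG, which has no target of its own, gave another 1. Both libraries came from TGA1-GFP roots. The promoter of the fusion, the genetic background, the age of the plants and their nitrogen supply are not stated in the labels.

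The deposited result was 1 list of 8002 peaks, each with a chromosome, a start and an end and with no height, score or read count. The depth behind a peak is therefore unknown, and each antibody had 1 library, without a replicate. Width and place in the list were the values left to describe a peak. Widths over the whole list had a median of 434 bp and ran from 249 to 4997 bp, and 9.14% of peaks were 1000 bp or wider. The file does not say what its order stands for. Binding and tissue could not be checked against marker genes, since no expression was measured.

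AHA pumps use ATP to move protons out of the cell. The gradient of charge and acidity that results drives proton-coupled uptake of nitrate, phosphate and other nutrients by root cells, and the outflow of acid helps roots to take up iron. A pump is held inactive by its own C-terminal tail, and phosphorylation near the end of that tail with binding of a 14-3-3 protein releases it. By protein sequence AHA1, AHA2, AHA3 and AHA5 form one branch of the family, AHA4 and AHA11 another, and AHA6, AHA8 and AHA9 a further one that is known mainly from pollen.

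TGA1-GFP peaks lay at 5 of the 10 pump genes and none lay at the other 5. A gene was given every peak that overlapped it or the 3000 bp on either side by at least 1 bp. AHA1 had 5 peaks, AHA2 and AHA4 had 3 each, AHA11 had 2 and AHA3 had 1. AHA5, AHA6, AHA7, AHA8 and AHA9 had none. The count of 5 in 10 stands beside 40.5% of all protein-coding genes by the same rule. It stands beside 45.1% of the 2013 protein-coding genes whose length fell within the range of the AHA genes, 4195 to 6109 bp. By this rule the share of pump genes with a peak was thus near the background. Other rules, given further below, moved the 2 shares unequally, and their backgrounds were not matched for length. Without flanks 3 of 10 stood beside 14.9%, with the nearest gene only 5 of 10 beside 20.8%, and with 5000 bp flanks 5 of 10 beside 51.8%. What set the members apart from each other was how many peaks they had and how wide these were.

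**Figure D1:**
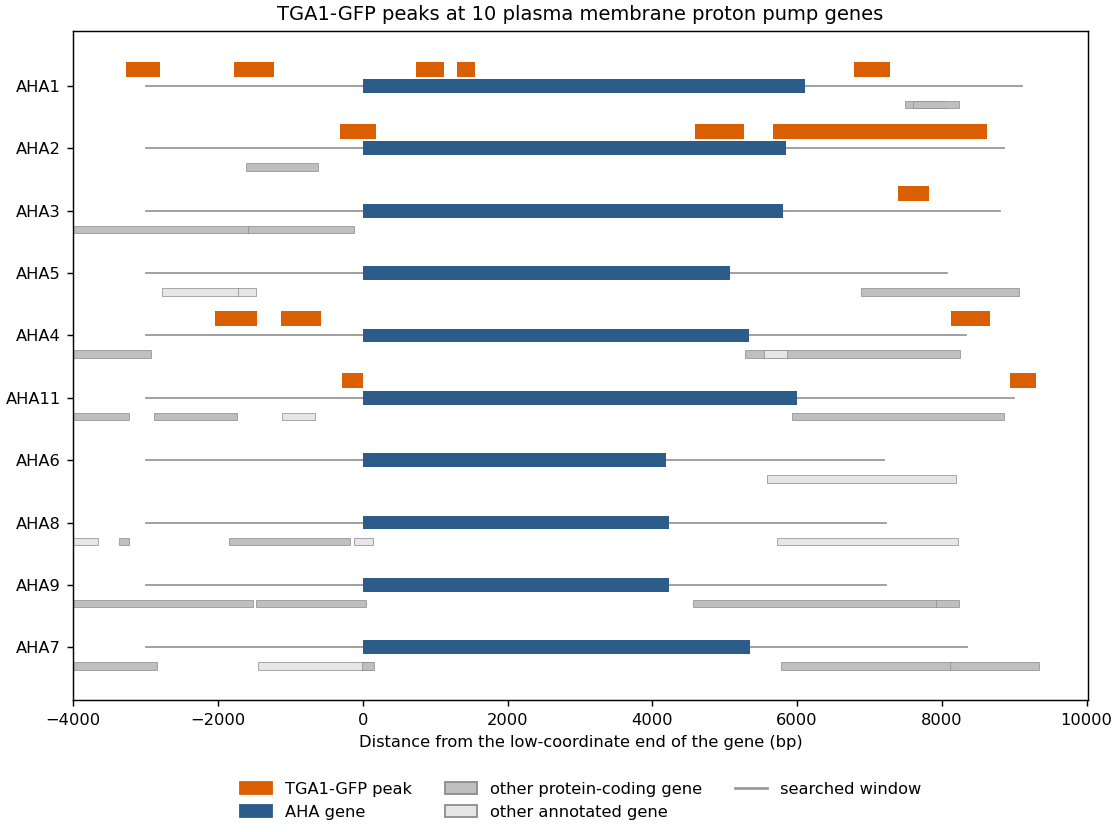
Positions of peaks (orange) along the 10 AHA genes (blue), in bp from the low-coordinate end of each gene, with neighbouring genes in grey (cut off at the plot margin) and the searched window as a line. The widest block is the 2961 bp peak at the high-coordinate end of AHA2, and the 5 genes AHA5 to AHA9 have no orange block.

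AHA2 (AT4G30190), the main proton pump of roots, carried the widest peak of the family. This peak was 2961 bp wide (chromosome 4, 14776055 to 14779015, TAIR10) and was rank 15 by width among 8002 peaks, at place 364 of the list. It covered the outermost 193 bp of the gene on the high-coordinate side and ran on for 2768 bp outside it. A second peak of 675 bp (14774986 to 14775660, place 2160) lay inside the gene, 394 bp from the wide one. The last peak of the 3, 499 bp wide (14770079 to 14770577, place 4046), crossed the opposite end of the gene, with 183 bp inside and 316 bp outside. Peaks thus lay across both ends of AHA2 and within it.

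The 3 peaks covered 4135 bp of the 11853 bp searched at AHA2, or 34.9%. Only 24 protein-coding genes of any length, AHA2 included, had as many bases of their window in peaks. A peak as wide lay at 33 genes, 0.120% of the total. The wide AHA2 peak was named when the genes were chosen, so these counts only describe it. The wide peak was not within 3000 bp of any other protein-coding gene. The gene table used gives no strand, so it is not stated here which end of a pump gene is the start of transcription.

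The wide peak opened a long gene-free stretch that held further peaks beyond the 3000 bp limit. This stretch was looked at after the wide peak had been seen. It measured 10284 bp between AHA2 and VEL1 (AT4G30200), which encodes a relative of the vernalization protein VIN3. Beyond the wide peak came peaks of 400 bp, 3436 bp from AHA2, of 570 bp at 4600 bp, of 1294 bp at 5520 bp, of 329 bp at 8247 bp and of 258 bp at 10119 bp, the last overlapping VEL1. Their places in the list were 3645, 947, 1609, 6089 and 7865 in that order. Of the stretch, 5527 bp or 53.7% lay in peaks, against 5.89% of all sequence between neighbouring protein-coding genes.

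The stretch beside AHA2, with 6 peaks, was 1 of 20 stretches with 6 or more peaks among 23810 in the genome, or 0.084%. Of the 704 stretches of 10000 bp or longer, 521 held no peak at all and 3, this one included, had as large a share of their length in peaks. The 1294 bp peak lay 3472 bp from VEL1, so it was nearer to VEL1 than to AHA2.

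AHA1 (AT2G18960), an abundant pump that is also known for its part in stomatal opening, had the most peaks, 5, but none was wide. On its low-coordinate side were peaks of 462 bp (chromosome 2, 8218246 to 8218707, place 1611), 2807 bp from the gene, and of 548 bp (8219734 to 8220281, place 1660), 1233 bp from it. Inside the gene were peaks of 385 bp (8222244 to 8222628, place 6113) and of 249 bp (8222816 to 8223064, place 6557), with 187 bp between them. A peak of 485 bp (8228306 to 8228790, place 4342) lay 684 bp beyond the high-coordinate end. The flanking peaks on the low-coordinate side stood early in the list and those inside the gene stood late, and the 249 bp peak had the smallest width of the list, shared by 83 peaks.

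Only 0.441% of protein-coding genes of any length had 5 or more peaks in their window. A peak at least as wide as the 548 bp peak of AHA1 lay at 17.2% of them. In all 1861 bp or 15.4% of the AHA1 window lay in peaks. AHA1 and AHA2, close relatives, thus differed in the form of their peaks: 5 peaks of 249 to 548 bp at AHA1, and 3 peaks of 499 to 2961 bp at AHA2.

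A wider peak lay further out at AHA1. On the low-coordinate side the next protein-coding gene, HPT1 (AT2G18950), which encodes an enzyme of vitamin E synthesis, was 11000 bp away. In that stretch a 1598 bp peak at place 134 (chromosome 2, 8214763 to 8216360) stood 5154 bp from AHA1 and 4250 bp from HPT1. It was rank 168 by width, above the ranks of the 5 peaks given to AHA1, of which the highest was 2612. With the 2 peaks nearer to AHA1, 2608 bp of the stretch, or 23.7%, lay in peaks.

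**Figure D2:**
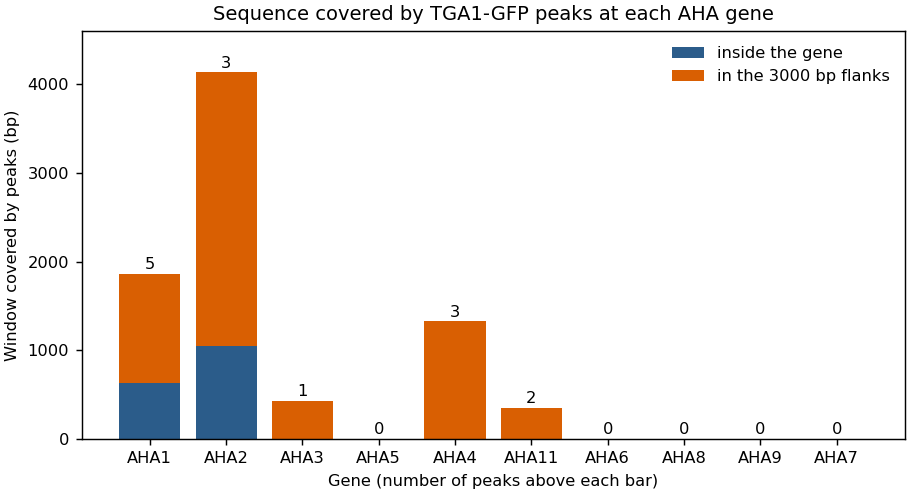
Bases of each AHA window (the gene with 3000 bp on either side) that lay in peaks, split into gene body (blue) and flanks (orange), with the number of peaks above each bar. AHA2 had 4135 bp in peaks, AHA1 had 1861 bp, AHA4 had 1327 bp, AHA3 had 431 bp and AHA11 had 350 bp, and the other 5 genes had 0.

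AHA3 (AT5G57350), the pump of phloem companion cells, had 1 peak of 431 bp (chromosome 5, 23238270 to 23238700), 1588 bp from its high-coordinate end. Its width was close to the median of the list while its place, 1203, was early. The peak was also within reach of ZTL (AT5G57360), an F-box photoreceptor of the circadian clock, which was 2620 bp from it on the far side. On the low-coordinate side AHA3 had only 124 bp of gene-free sequence and no peak.

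AHA5 (AT2G24520), the other member of the branch of AHA1, AHA2 and AHA3, had no peak. The nearest was 1176 bp wide, 7454 bp from its high-coordinate end and beyond the neighbouring gene AT2G24530. The low-coordinate side of AHA5 had 9312 bp free of protein-coding genes, a length similar to the peak-bearing stretches beside AHA1 and AHA2, and held 0 peaks. A long stretch without a peak was the usual case: of the 704 stretches of 10000 bp or longer, 521 held none. Its surroundings were not poor in peaks: the 1 Mb centred on AHA5 held 80 peaks, against a median of 79 over all protein-coding genes.

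AHA4 (AT3G47950), described from the root endodermis, and AHA11 (AT5G62670), which is transcribed in many organs, share a gene arrangement. Each overlapped at its high-coordinate end with a gene for a glucosinolate transporter of the nitrate transporter family, AHA4 with GTR1 (AT3G47960) by 58 bp and AHA11 with GTR2 (AT5G62680) by 73 bp. At the far end of both transporter genes lay a peak that just reached the window of the pump. Beside AHA4 it was 539 bp wide (chromosome 3, 17700797 to 17701335, place 2246) and overlapped the outermost 127 bp of GTR1. Beside AHA11 it was 354 bp wide (chromosome 5, 25168149 to 25168502, place 5769) and began 89 bp beyond GTR2. The ends of both peaks furthest from the pump were 412 bp from GTR1 and 442 bp from GTR2. Each transporter gene had 2 peaks in its own window. The widest at GTR1 was the 539 bp peak, but the widest at GTR2 was another one, of 915 bp. These peaks were 2798 bp from AHA4 and 2940 bp from AHA11, with most or all of the transporter gene between, and were nearer to the transporter gene than to the pump.

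The other ends of AHA4 and AHA11 looked unlike each other. AHA4 had peaks of 582 bp (17690620 to 17691201, place 1134) and 542 bp (17691542 to 17692083, place 1236) on its low-coordinate side, 1465 and 583 bp from the gene and 340 bp apart. Both lay in the 2922 bp between AHA4 and AT3G47940, and the 542 bp peak was nearer to AHA4 than to that gene, from which it was 1799 bp away. The 582 bp peak was nearer to AT3G47940, at 877 bp, and was also 2959 bp from GLDH (AT3G47930), which encodes the last enzyme of vitamin C synthesis. AHA11 had 1 peak there, 289 bp wide (25158920 to 25159208, place 6441), which overlapped only the outermost 1 bp of the gene. That peak was also 1455 bp from AT5G62660 and 2937 bp from AT5G62650. Both AHA11 peaks were narrower than the median of the list and stood in its later part, while all 3 AHA4 peaks were wider than the median and stood in its earlier part.

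**Figure D3:**
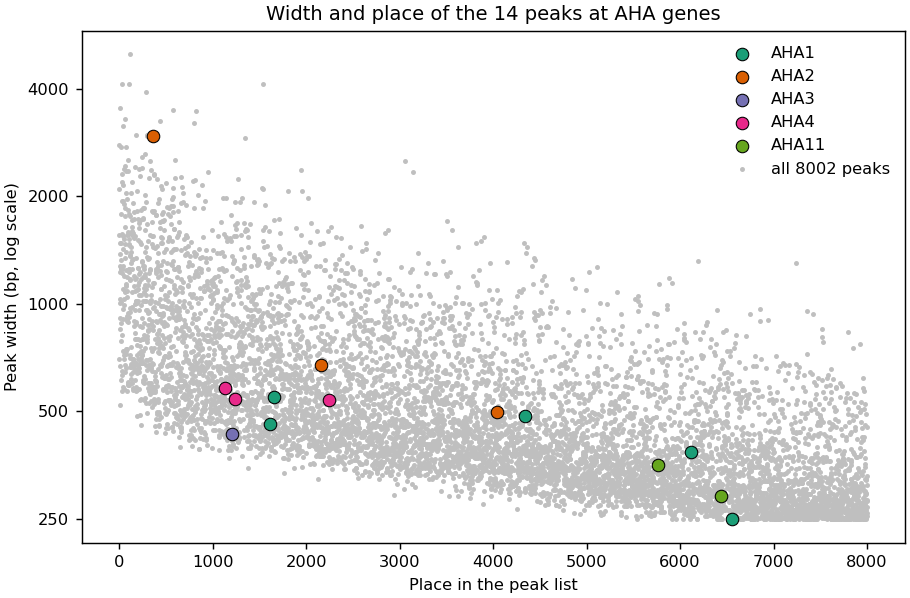
Width of each peak (bp, log scale) against its place in the deposited list, with the 14 peaks at AHA genes coloured by gene and all 8002 peaks in grey. The 2961 bp peak of AHA2 stands apart from the other 13, which were 249 to 675 bp wide and at places from 1134 to 6557.

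Taken over the family, the 14 peaks were 492 bp wide at the median, against 434 bp over the list, and 9 of the 14 were wider than that list median. Only the AHA2 peak, named in the choice of genes, reached 1000 bp. Thus 1 of 10 members had such a peak, beside 5.67% of protein-coding genes, which is no test of the family. In position, 8 of the 14 peaks lay wholly outside the pump gene, 3 wholly inside and 3 across an end. The same split over the peaks at all protein-coding genes is not given here, so it is not read as a trait of the pump genes. Peaks overlapped the gene body itself at 3 members, AHA1, AHA2 and AHA11, the last by 1 bp, against 14.9% of protein-coding genes. Members had 1.25 peaks per 10 kb of window, against 0.771 per 10 kb over the windows of all protein-coding genes. The median member had 0.5 peaks and the median protein-coding gene 0. At 3 or more peaks stood 3 members, AHA1, AHA2 and AHA4, against 5.79% of protein-coding genes. The AHA genes were 5340 bp long at the median and protein-coding genes 2078 bp, and a longer gene has a longer window. The shares of 5.67%, 14.9% and 5.79% were not matched for gene length.

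Of the 14 peaks given to pump genes, 8 were within 3000 bp of another protein-coding gene as well. The same share over all 8002 peaks is not given here, so this is not read as a trait of the pump genes. The median stretch between neighbouring protein-coding genes was 877 bp. The 6 that reached no other protein-coding gene were 4 at AHA1 and 2 at AHA2, the wide one among them. Besides the neighbours named above, the 485 bp peak of AHA1 was 210 bp from AT2G18969 and 326 bp from AT2G18970, and the 499 bp peak of AHA2 was 308 bp from AT4G30180. Binding data of this kind do not tell which of the genes near a peak responds to the factor.

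Each of the 3 peaks closest to the edge of the window belonged to a member that also had a nearer peak. The peaks just inside it were those 2940 bp from AHA11, with 61 bp in the window, 2807 bp from AHA1, with 194 bp, and 2798 bp from AHA4, with 203 bp. For the members with a peak, the first peaks outside it were the 400 bp peak 3436 bp from AHA2 and a 447 bp peak 5124 bp from AHA4. Next came the 1598 bp peak 5154 bp from AHA1, a 915 bp peak 5684 bp from AHA11 and an 865 bp peak 8502 bp from AHA3. For AHA2 a second peak outside it, of 570 bp, lay at 4600 bp. With flanks of 1000 bp AHA3, whose only peak was 1588 bp away, had none. None of the 5 members without a peak had one within 5000 bp.

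The 5 pump genes without a peak were in different surroundings. AHA6 (AT2G07560) and AHA8 (AT3G42640), both known from pollen, were far from any peak, the nearest lying 267734 bp from AHA6 and 395098 bp from AHA8. The 1 Mb centred on AHA6 held 2 peaks and 136 protein-coding genes, and that on AHA8 held 7 peaks and 59 genes, against medians of 79 peaks and 271 genes over all protein-coding genes. AHA9 (AT1G80660), a pump of anthers, was 10664 bp from the nearest peak, with 45 peaks and 177 genes in a span that the end of the annotated chromosome cut short 109 kb from the middle of the gene. AHA7 (AT3G60330), which has a role in root hairs, was 16381 bp from the nearest peak although the 1 Mb around it held 79 peaks and 273 genes. The part that gene density and peak density play in these differences was not tested.

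**Figure D4:**
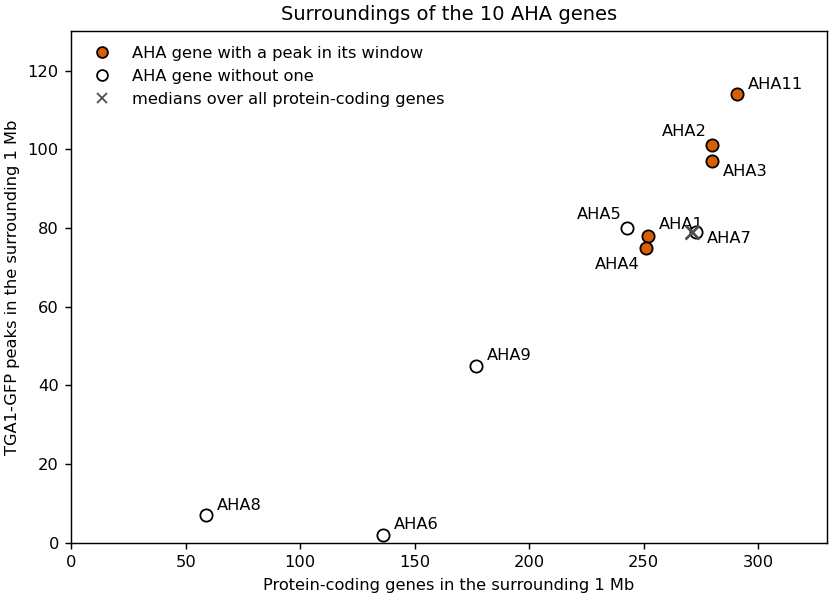
Number of TGA1-GFP peaks against number of protein-coding genes in the 1 Mb centred on each AHA gene, filled where the gene had a peak in its own window, with the medians over all protein-coding genes as a cross. The genes with a peak had 75 to 114 peaks around them, while AHA6 and AHA8 had 2 and 7, and AHA5 and AHA7, also without a peak, had 80 and 79. The point of AHA9, at 45 peaks and 177 genes, covers less than 1 Mb, since the annotated chromosome ends 109 kb from the middle of that gene.

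AHA10 (AT1G17260), the family member that the choice of genes leaves out and that acts in the seed coat, also had no peak. The nearest was 22840 bp away, with 92 peaks in the 1 Mb around the gene. Counting it, 6 of 11 family members had none.

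Known regulators of the pumps and other members of their families formed 4 lists with 45 genes, of which 18 had a peak in the same window, 40.0%. By this rule that share was close to the 40.5% of all protein-coding genes, and counts by other rules are given further below. The lists differed widely among themselves, and the differences were not tested.

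Of 9 PP2C.D phosphatases, a family with members that remove the activating phosphate from the pump tail, 6 had a peak and 3 had none. All protein-coding genes stood at 40.5%. A peak of 1000 bp or wider lay at 2 of the 9, beside 5.67% of all protein-coding genes. Neither share was matched for gene length. Which of the 9 act on a pump was not examined. The widest were 1093 bp at PP2C.D9 (AT5G06750), 2177 bp from the gene, and 1031 bp at PP2C.D8 (AT4G33920), across a gene end. PP2C.D3 (AT3G12620) had a peak of 883 bp and PP2C.D6 (AT3G51370) one of 573 bp. None of the 6 genes of the SAUR19 subfamily, small auxin-induced proteins that block phosphatases of this family, had a peak. These genes are short, 603 to 839 bp, and their locus tags are close together, AT5G18010 to AT5G18080. Their windows can therefore share sequence, which was not examined, and the 6 are not read as separate observations.

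Of 13 genes for 14-3-3 proteins, 2 had a peak and 11 had none, beside 40.5% of all protein-coding genes with a peak. GRF2 (AT1G78300) had 6 peaks, the widest 775 bp across a gene end. GRF8 (AT5G65430) had 2, the widest 564 bp, also across a gene end. The median gene of this list had 0 peaks, as did the median protein-coding gene.

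Of 17 receptors, kinases and other regulators, 10 had a peak and 7 had none, beside 40.5% of all protein-coding genes with a peak. A peak of 1000 bp or wider lay at 3 of the 17, beside 5.67% of all protein-coding genes. Neither share was matched for gene length. The widest were at kinases of the calcium sensor network. CIPK14 (AT5G01820) had 4 peaks, among them one of 1717 bp at place 138, 2304 bp from the gene. CIPK11 (AT2G30360), the kinase PKS5 that phosphorylates the AHA2 tail and keeps the pump from binding 14-3-3 protein, had 1 peak of 1697 bp at place 435, across a gene end. PSY1R (AT1G72300), a peptide receptor that phosphorylates AHA2, had 3 peaks, the widest 1526 bp. FER (AT3G51550), the receptor kinase through which the peptide RALF1 inhibits AHA2, had 2 peaks, the widest 816 bp, while RALF1 (AT1G02900) itself had none.

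**Figure D5:**
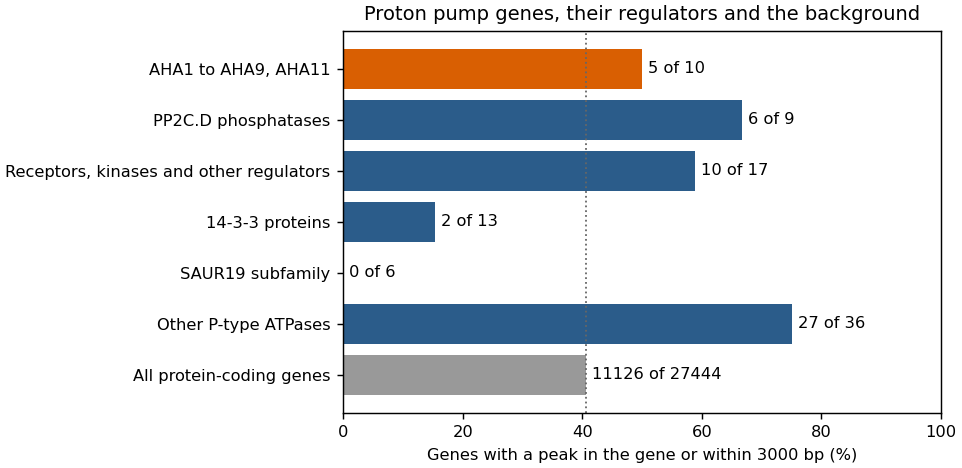
Share of genes with a TGA1-GFP peak in the gene or within 3000 bp, with counts beside each bar. Shown are the AHA genes, 4 lists of pump regulators and their family members, the other P-type ATPases and all protein-coding genes (dotted line, 40.5%). The AHA genes, at 5 of 10, stood near the line, the PP2C.D phosphatases (6 of 9) above it, and the 14-3-3 genes (2 of 13) and SAUR19 genes (0 of 6) below it. The SAUR19 genes are short with locus tags close together, so they are not read as separate observations.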

How the data were processed

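Per the submitters' processing notes, reads were aligned with Bowtie2 and peaks called with MACS2 on build TAIR10. No version, threshold or filter is stated, nor whether the peak calling used the IgG library as its control. The deposited list has 3 columns (chromosome, start, end) and no score. Starts were taken to count from 0, as in BED files, and 1 was added to each. Genes came from a RefSeq table of assembly TAIR10.1, which keeps the nuclear chromosomes of TAIR10. It has no strand or exons, and its gene coordinates are not printed. Gaps are from the nearest edge of a peak to the gene. A peak covers every window it overlaps. All 91 listed genes were found in the table. The members and lists were chosen with earlier results of these data known. Named were all members, AHA10, neighbours sharing a peak, and up to 4 genes per list with the widest peaks; RALF1, HPT1, VEL1, PDR2 and AT2G24530 were added after their values were seen. No test was made, since there was 1 library per antibody. The overlap code was tested on simulated data. Python 3.11.15, numpy 2.4.6 and pandas 2.3.3 were used.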

Additional observations from a re-analysis of the deposited data

How the results depend on the processing

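The members with a peak numbered 5 with midpoints, with at least 50% of a peak inside, with the nearest gene only, with 5000 bp flanks and with starts counted from 1, and 4 with 1000 bp flanks (without AHA3) or the first part of the list alone, 4001 peaks (without AHA11). They numbered 3 without flanks (AHA1, AHA2, AHA11) and 3 with peaks of 500 bp or wider (AHA1, AHA2, AHA4). Peaks at members numbered 8 with 1000 bp flanks, 8 in the first part of the list, 9 with the nearest gene only, 6 without flanks and 6 at 500 bp or wider. Peaks per 10 kb of member window were 0.713 in the first part of the list, 0.802 with the nearest gene only and 0.535 at 500 bp or wider, against 0.390, 0.334 and 0.302 over all protein-coding genes. Of the 45 pathway genes, 11 had a peak without flanks, 17 with 1000 bp flanks and 24 with 5000 bp flanks. The count was 18 by midpoint or by at least 50% of the peak and 14 in the first part of the list. It was 15 with the nearest gene only and 14 at 500 bp or wider. The background share was 14.9% without flanks, 26.7% with 1000 bp, 51.8% with 5000 bp, 38.9% by midpoint or by at least 50% of the peak, 24.6% in the first part of the list, 20.8% with the nearest gene only, 19.7% at 500 bp or wider and 35.7% over all annotated genes. The AHA2 peak was 2962 bp wide with starts counted from 1. These settings use fewer or more peaks or sequence by construction. The planned search for TGACG letters and the protein identities were not run, since no sequence was used here. No paired analysis was possible because each antibody had 1 library. Depth is unknown, so a gene without a peak is one without a call in this list.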

Other observations

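The P-type ATPases outside the AHA family, which pump other ions or move lipids, carried peaks at more of their genes than the 40.5% of all protein-coding genes, a difference that was not tested. With AHA10 they were 36 genes, of which 27 had a peak in the gene or within 3000 bp. These were 7 of 10 ACA calcium pumps, 4 of 4 ECA calcium pumps, 7 of 8 heavy metal pumps and 9 of 12 ALA lipid flippases, and neither AHA10 nor PDR2 (AT5G23630) had one. HMA4 (AT2G19110), which loads zinc into the xylem, had the widest, 2225 bp inside the gene at place 816 and rank 48 by width. ALA10 (AT3G25610), a lipid flippase, had 4 peaks, the widest 1919 bp, 516 bp from the gene. ECA3 (AT1G10130), an endomembrane calcium and manganese pump, had a 1485 bp peak, and HMA1 (AT4G37270), a chloroplast metal pump, one of 1215 bp. Of the 36 genes, 9 had a peak of 1000 bp or wider, against 5.67% of protein-coding genes and 1 of the 10 AHA genes. None reached the 2961 bp of AHA2. The 36 genes were 3199 to 11340 bp long, against a median of 2078 bp over protein-coding genes. The shares of 40.5% and 5.67% were not matched for length. Among protein-coding genes of 4195 to 6109 bp, 45.1% had a peak in the gene or within 3000 bp.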
